A study of Mus musculus with 6 samples.

Results

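The mitochondrial ribosomal proteins are the nuclear-encoded proteins of the ribosome that works inside mitochondria. Genes were taken as members where the symbol was Mrpl or Mrps followed by a number and at most 1 letter from a to c. This rule found 78 of the 34724 genes in the deposited table, 49 with an Mrpl symbol and 29 with an Mrps symbol. The study compared 2 mouse cell lines by Nanopore direct RNA sequencing, in which native RNA strands are read without conversion to cDNA. The line 2H-11 is labelled tumor endothelial cells, and SVEC4-10 is labelled normal endothelial cells, with 3 libraries of each. Both lines are labelled as SV40 transformed cells of axillary lymph node origin from adult mice of the C3H/HeJ strain. Since only 1 line carries each label, what comes with tumor status cannot be told apart from what is peculiar to a line. Whether the 3 libraries of a line are separate cultures is not stated. If they are not, p-values cover technical spread alone.

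The mitochondrial ribosome translates the few proteins that mitochondrial DNA encodes, all of them parts of the respiratory chain and ATP synthase. Its rRNAs come from mitochondrial DNA, while its proteins are made in the cytosol, imported and assembled on those rRNAs into a large and a small subunit. Some of the proteins have counterparts in bacterial ribosomes, and others are found in mitochondria alone. The large subunit joins amino acids and holds the exit tunnel, and the small subunit binds the mRNA and decodes it. By structure, 51 members belong to the large subunit and 26 to the small subunit. Mrps30 and Mrps18a carry small-subunit symbols but sit in the large subunit, and Mrps36 is a part of the 2-oxoglutarate dehydrogenase complex rather than of the ribosome.

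Total counts were 5375133, 4105369 and 5825968 in 2H-11 and 4278424, 3628400 and 16798666 in SVEC4-10. Levels are given as CPM, in which each count is divided by the total of its library and put on a common scale. The labelled cell type was checked on marker genes: 12 of 15 endothelial markers were under 1 CPM in every library, and 8 of them had no count in any. Summed endothelial markers were at 57.5 to 69.8 CPM in 2H-11 and 2.80 to 4.41 in SVEC4-10. Summed mesothelial markers, 9 genes, were at 58.5 to 72.7 CPM in 2H-11 and 3400 to 4298 in SVEC4-10. Of 7 tested, 6 were lower and 1 was higher in 2H-11, with log2 fold changes from -13.46 to 6.82 in edgeR's test. Summed fibroblast and mural markers, 11 genes, were at 2164 to 2817 CPM in 2H-11 and 2474 to 2778 in SVEC4-10. The sum hides genes that went apart: of 9 tested, 5 were higher and 1 lower in 2H-11, with log2 fold changes from -4.57 to 10.46 in edgeR's test. Leukocyte markers, 7 genes, summed to at most 3.58 CPM in any library. The part of these marker differences in the results below was not tested.

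Of the 78 members, 77 passed the filter on low counts, and most differed little between the lines. In 2H-11, 5 members were higher and 7 were lower at an adjusted p under 0.05 in edgeR's quasi-likelihood test with Benjamini-Hochberg adjustment over the 13187 genes tested. The other 65 did not pass. The called members were 15.6% of those tested, against 36.2% of all genes. Higher members were 6.49% of the family, against 20.1% of all genes, and lower members were 9.09%, against 16.2% of all genes. The median fold change of the members, 2H-11 over SVEC4-10 on the log2 scale, was -0.18, with quartiles of -0.33 and 0.12, while the median of all tested genes was 0.00, with quartiles of -0.43 and 0.56. The sizes of change also differed, with a median absolute log2 fold change of 0.28 in the family and 0.49 over all tested genes. Small changes were not particular to the family: this median was 0.21 for cytosolic ribosomal proteins and 0.22 for nuclear-encoded respiratory chain subunits. Mrps6 alone reached a 2-fold difference among the 77, whereas 25.8% of all tested genes did. Of the 2 other families, 3.66% and 1.30% did. In bulk RNA, fewer cells that make a transcript and less of it per cell cannot be told apart.

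The split into higher and lower members moved with scaling and with single libraries. With library size alone, with upper-quartile factors or with Ensembl identifiers only, 8 members were higher and 3 lower. Scaling by library size alone shifted the median of all genes by 0.10 on the log2 scale. The number higher was 3 without 2H-11 replicate 2 and also without SVEC4-10 replicate 2 or replicate 3. The number lower was 3 without 2H-11 replicate 2 or SVEC4-10 replicate 3, and 12 without 2H-11 replicate 3. The member median was negative in each of the 18 alternatives.

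**Figure D1:**
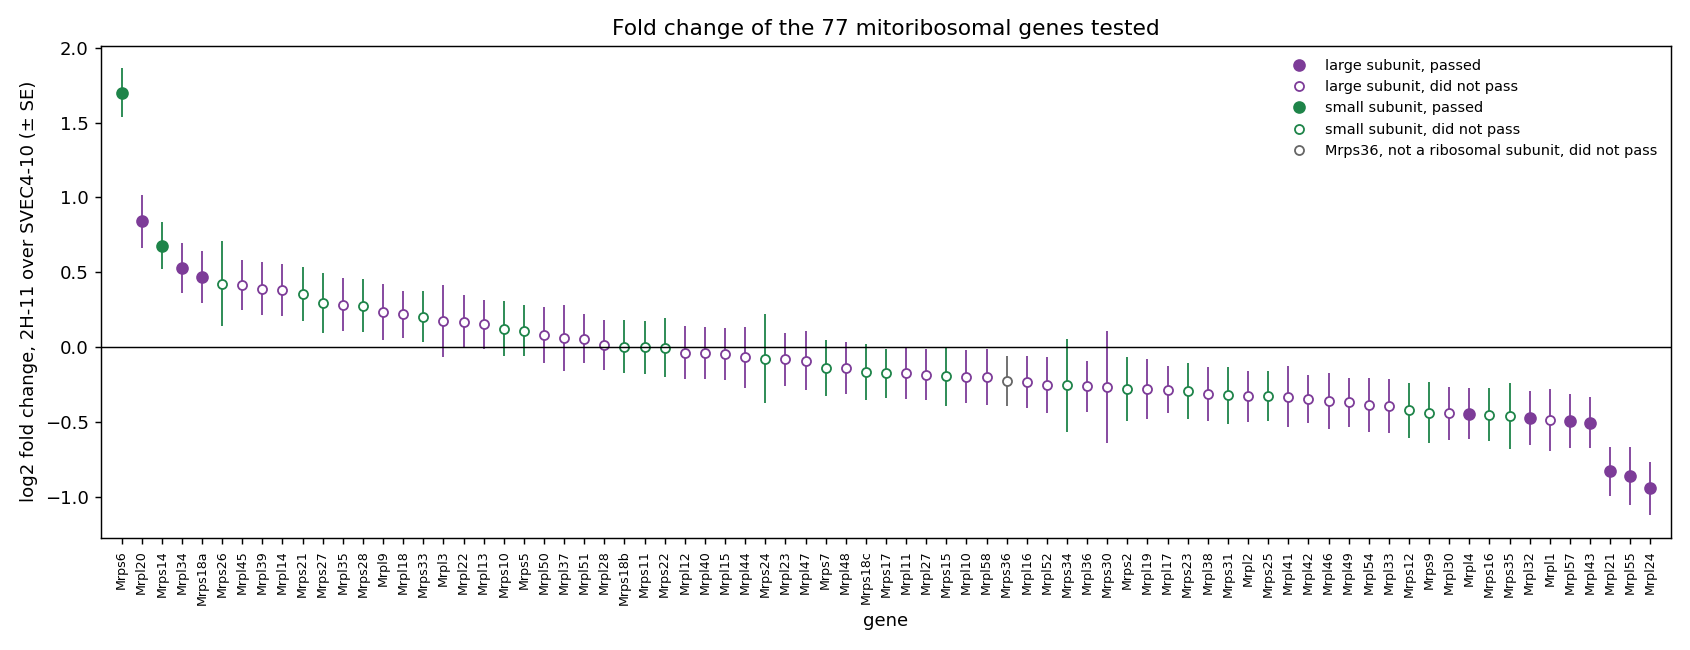
Log2 fold change (2H-11 over SVEC4-10, vertical axis, with SE as lines) of the 77 tested members in order of size, coloured by subunit, with filled points for those that passed edgeR's test. The members lie between -0.95 and 1.70, with Mrps6 at 1.70, and 26 are above 0 and 51 below.

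Counted without a model, 14 members had all 3 libraries of 2H-11 above all 3 of SVEC4-10, and 20 had all 3 below. These were 18.2% and 26.0% of the tested members, against 28.0% higher and 18.8% lower over all tested genes. Of the other 44, Mrpl53 had no count and the rest overlapped between the lines. Of the members without overlap, 9 higher and 14 lower ones did not pass edgeR's test.

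The summed level of the family was close in the lines. It was 10099, 10299 and 11107 CPM in 2H-11, against 9659, 10432 and 10065 CPM in SVEC4-10, and these ranges overlapped. The ratio of the means was 1.04, and with TMM factors, which scale libraries to the bulk of genes, it was 0.975, on the other side of 1. The large-subunit members summed to 7186 ± 365 CPM in 2H-11 and 7159 ± 314 in SVEC4-10 (SD, n = 3 each). The small-subunit members summed to 3056, 3076 and 3331 CPM in 2H-11, against 2649, 2814 and 2684 CPM in SVEC4-10, without overlap. With TMM factors, tried after seeing the data, these sums were 2900, 2939 and 3318 CPM in 2H-11, against 2595, 3069 and 2783 CPM in SVEC4-10, and overlapped. Mrps6, the member that differed most, was then left out, a choice made after seeing the data that lowers the 2H-11 sums more. Without Mrps6, the small-subunit sums of 2713, 2721 and 2975 CPM in 2H-11 and 2552, 2714 and 2579 in SVEC4-10 overlapped.

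The ratio of the small-subunit sum to the large-subunit sum does not depend on scaling. It was 0.443, 0.435 and 0.439 in 2H-11, against 0.388, 0.378 and 0.372 in SVEC4-10. Without Mrps6, left out after seeing the data, it was 0.393, 0.385 and 0.392 in 2H-11, against 0.374, 0.365 and 0.358 in SVEC4-10. On either count each 2H-11 library stood above each SVEC4-10 library. With Mrps14 left out as well, a choice made after seeing the data, the ratio was 0.3501, 0.3385 and 0.3510 in 2H-11, against 0.3478, 0.3401 and 0.3317 in SVEC4-10, and the lines overlapped. This ratio was not tested, and 46.8% of all genes tested did not overlap between the lines in one direction or the other.

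**Figure D2:**
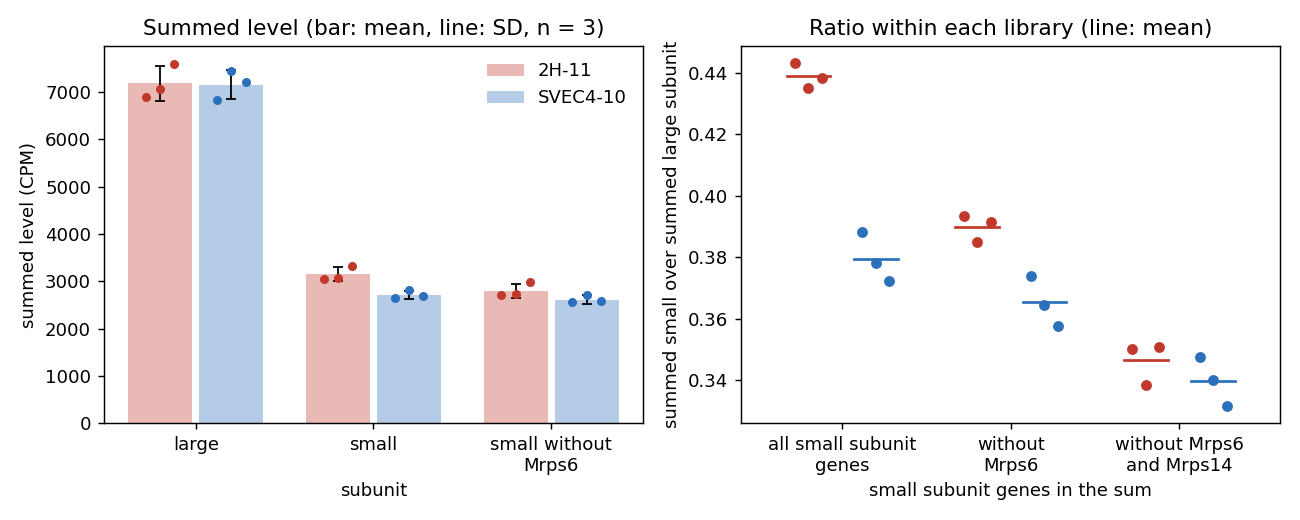
Left, CPM summed over large-subunit, small-subunit and small-subunit members without Mrps6, with bars for means, lines for SD and points for the 3 libraries of each line; right, the ratio of the small sum to the large sum in each library, also without Mrps6 and without Mrps6 and Mrps14, on an axis that does not start at 0. The large-subunit sums overlap, and the ratio with all small-subunit members lies at 0.435 to 0.443 in 2H-11 and 0.372 to 0.388 in SVEC4-10, while without Mrps6 and Mrps14 the lines overlap.

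Mrps6, a small-subunit protein whose bacterial relative pairs with the protein S18 on the platform, differed most. It had 343, 355 and 356 CPM in 2H-11, against 97.7, 101 and 105 CPM in SVEC4-10. No library of 2H-11 came near those of SVEC4-10. The log2 fold change was 1.70 ± 0.16 (SE), or 3.25-fold higher in 2H-11 after TMM scaling, with an adjusted p of 1.6e-07 in edgeR's quasi-likelihood test. Mrps6 took 3.35% of the family's counts in 2H-11 and 1.01% in SVEC4-10. In the authors' deposited table its log2 fold change was 1.64, with an adjusted p of 1.01e-20. The gene (ENSMUSG00000039680) lies on the plus strand at chr16:92058270-92112227 (GRCm38, GENCODE M21). Of its 1533 exonic bases, 305 also lie in exons of Gm49711 and 159 in exons of Slc5a3, a myo-inositol transporter gene, both on the same strand. Gm49711, which was not tested, had 1.62 ± 0.137 CPM in 2H-11 and 0.650 ± 0.1797 in SVEC4-10 (SD, n = 3 each). Slc5a3 had 5.74 ± 2.38 CPM in 2H-11 and 2.11 ± 0.430 in SVEC4-10 (SD, n = 3 each), and was itself higher, with a log2 fold change of 1.33 ± 0.40 (SE) and an adjusted p of 0.0138 in edgeR's test.

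Mrps14, a protein of the head of the small subunit, was the other small-subunit member that was higher. It had 299, 328 and 309 CPM in 2H-11, against 179, 182 and 187 CPM in SVEC4-10. The lines did not overlap, and the log2 fold change was 0.68 ± 0.16 (SE), with an adjusted p of 0.00232 in edgeR's test. The gene (ENSMUSG00000058267) lies at chr1:160195215-160202170. No small-subunit member was called lower in the reported edgeR test. In that direction 4 had an unadjusted p under 0.05, and limma-voom and DESeq2 called 1 each. This absence depended on single settings: without 2H-11 replicate 3, edgeR called Mrps12, Mrps16, Mrps34 and Mrps35 lower. Without a filter it called Mrps12 and Mrps16 lower, and with the length trend removed Mrps12. Of the 26 small-subunit members, 7.69% were higher and 0.0% lower, against 20.1% and 16.2% of all tested genes. Their median log2 fold change was -0.11.

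Of the 50 large-subunit members tested, 3 were higher and 7 lower. Their median log2 fold change was -0.19. Mrpl20, whose bacterial relative binds the large rRNA early in assembly, was the one most clearly higher. It had 433, 447 and 544 CPM in 2H-11, against 221, 278 and 245 CPM in SVEC4-10. The lines stood apart, and the log2 fold change was 0.84 ± 0.17 (SE), with an adjusted p of 0.000918 in edgeR's test. It is encoded at chr4:155802878-155809975 (ENSMUSG00000029066). Mrpl20 took 4.51% of the family's counts in 2H-11 and 2.46% in SVEC4-10. Mrpl34, a small rRNA-binding protein, had 161, 175 and 178 CPM in 2H-11, against 126, 96.5 and 112 CPM in SVEC4-10, without overlap. Its log2 fold change was 0.53 ± 0.17 (SE), with an adjusted p of 0.0183 in edgeR's test, and this call was lost without 2H-11 replicate 2, SVEC4-10 replicate 2 or SVEC4-10 replicate 3 (adjusted p 0.0920, 0.0910 and 0.0718).

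Mrpl24 and Mrpl21 were lower in 2H-11. In bacteria the relative of Mrpl24 starts large-subunit assembly and lies near the exit of the tunnel. Mrpl24 had 59.2, 53.8 and 49.8 CPM in 2H-11, against 95.6, 102 and 95.3 CPM in SVEC4-10. Its lines did not overlap, and the log2 fold change was -0.95 ± 0.18 (SE), or 1.93-fold lower in 2H-11, with an adjusted p of 0.000399 in edgeR's test. Mrpl24 (ENSMUSG00000019710) lies at chr3:87919506-87923672. Mrpl21, an rRNA-binding protein of the large subunit, had 164, 168 and 171 CPM in 2H-11, against 257, 294 and 285 CPM in SVEC4-10. Again no library overlapped, and the log2 fold change was -0.83 ± 0.16 (SE), with an adjusted p of 0.000554 in edgeR's test. It lies at chr19:3282901-3292837 (ENSMUSG00000024829).

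Mrpl55, a further protein of the large subunit, was the third member that kept a lower call under each of the 18 alternatives. It had 34.4, 34.3 and 42.2 CPM in 2H-11, against 61.9, 67.0 and 60.9 CPM in SVEC4-10. The lines did not overlap, and the log2 fold change was -0.86 ± 0.20 (SE), with an adjusted p of 0.00193 in edgeR's test. It lies at chr11:59202486-59206134 (ENSMUSG00000036860). In the authors' deposited table the log2 fold changes were -0.98 for Mrpl24, -0.87 for Mrpl21 and -0.90 for Mrpl55.

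The other 4 lower members were nearer the threshold. Mrpl43 and Mrpl57 are found in mitochondrial but not in bacterial ribosomes. Mrpl43 had 135, 120 and 137 CPM in 2H-11, against 161, 170 and 190 CPM in SVEC4-10, with a log2 fold change of -0.51 ± 0.17 (SE). Mrpl57 had 70.0, 67.2 and 82.9 CPM in 2H-11, against 98.6, 94.8 and 98.3 CPM in SVEC4-10, with a log2 fold change of -0.50 ± 0.18 (SE). Both were without overlap, and their adjusted p was 0.0255 and 0.0377 in edgeR's test. The Mrpl43 call was lost without 2H-11 replicate 2 or SVEC4-10 replicate 3, and the Mrpl57 call without 2H-11 replicate 1, 2H-11 replicate 2 or SVEC4-10 replicate 3, with adjusted p between 0.0615 and 0.176.

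Mrpl32 is cut by the mitochondrial m-AAA protease before it joins the ribosome. It had 119, 141 and 117 CPM in 2H-11, against 137, 168 and 184 CPM in SVEC4-10, and was the only called member whose CPM overlapped. The log2 fold change was -0.48 ± 0.18 (SE), with an adjusted p of 0.0472 in edgeR's test. Mrpl4, whose bacterial relative lines the exit tunnel, had 144, 111 and 114 CPM in 2H-11, against 165, 158 and 147 CPM in SVEC4-10. Its libraries did not overlap, with a log2 fold change of -0.45 ± 0.17 (SE) and an adjusted p of 0.0493 in edgeR's test. Each of the 2 calls was lost without any 1 of 5 libraries: Mrpl32 held only without SVEC4-10 replicate 1, and Mrpl4 only without 2H-11 replicate 1, and adjusted p without the others was between 0.0522 and 0.227.

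**Figure D3:**
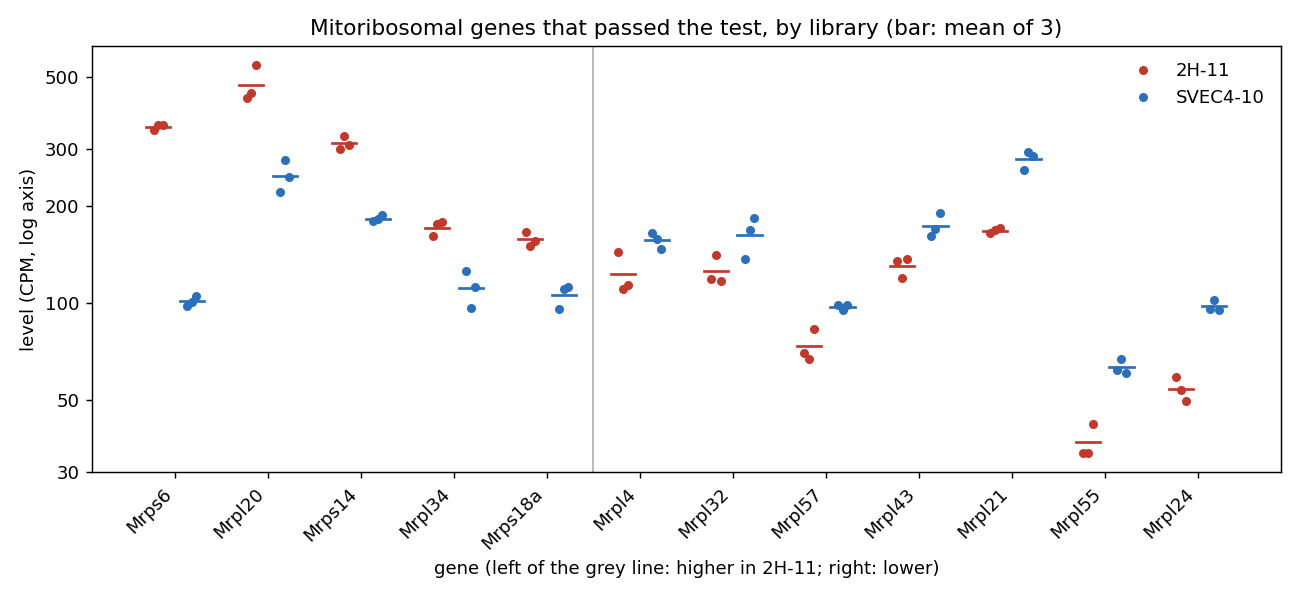
CPM (log axis) of the 12 called members, with points for libraries, short bars for means of 3, and 2H-11 left of SVEC4-10 within each gene. Mrps6 lies at 343 to 356 CPM in 2H-11 and 97.7 to 105 CPM in SVEC4-10, and of the 12 only Mrpl32 has libraries that overlap.

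Across the 18 alternatives, Mrps6, Mrpl20 and Mrps14 stayed higher and Mrpl24, Mrpl21 and Mrpl55 stayed lower in each. The other called members passed in fewer: Mrpl34 and Mrpl43 in 13 each, Mrpl57 in 9, Mrps18a in 7, and Mrpl32 and Mrpl4 in 6 each. The direction of all 12 held in all 18. The authors' own criterion was an adjusted p under 0.01 with a 2-fold change in their deposited table, which 18.9% of their 16107 genes passed. Among the members, Mrps6 passed it and was higher, and none was lower. At an adjusted p under 0.05 alone, the authors' deposited table had 4 members higher and 9 lower, against 31.8% of genes in either direction.

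**Figure D4:**
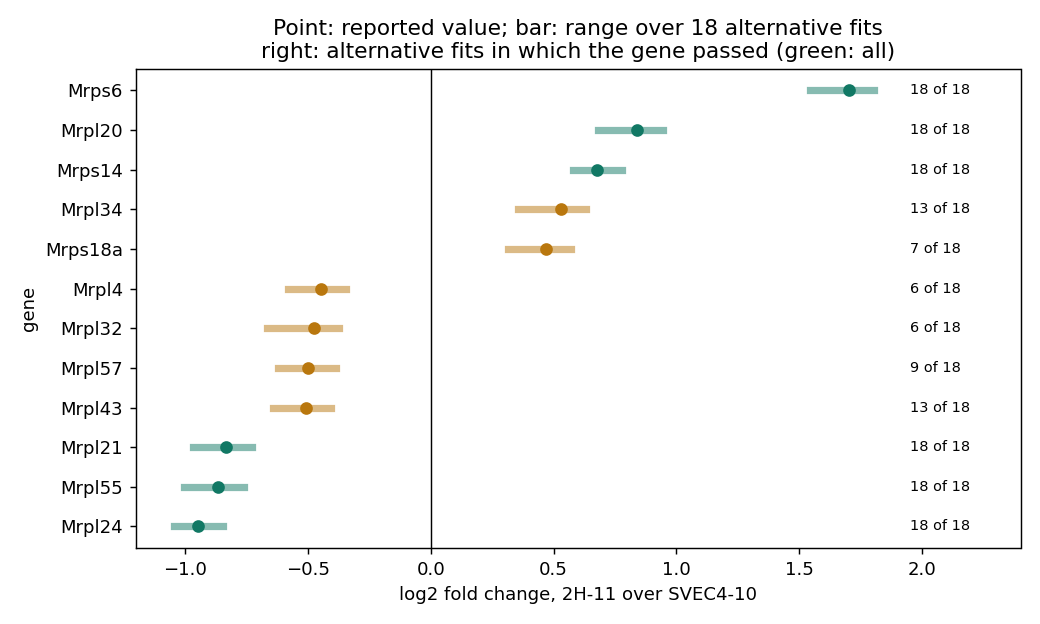
Log2 fold change (2H-11 over SVEC4-10, horizontal axis) of the 12 called members, with a point for the reported value and a bar for its range over the 18 alternatives; the numbers at right count the alternatives in which the gene passed, green marking those that passed in all. Mrps6, Mrpl20, Mrps14, Mrpl24, Mrpl21 and Mrpl55 passed in 18 and the other members in 6 to 13.

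The Mrps18 family consists of 3 relatives of the bacterial S18 protein, with Mrps18a placed in the large subunit and Mrps18b and Mrps18c in the small. Mrps18a had 166, 151 and 156 CPM in 2H-11, against 95.6, 111 and 112 CPM in SVEC4-10. Its lines did not overlap, and the log2 fold change was 0.47 ± 0.17 (SE), with an adjusted p of 0.0404 in edgeR's test, which was lost on leaving out any 1 of the 6 libraries (0.0624 to 0.214). Mrps18b had 190, 161 and 161 CPM in 2H-11, against 133, 174 and 169 CPM in SVEC4-10, and the lines overlapped. Its log2 fold change was 0.00 ± 0.18 (SE), with a 95% interval of -0.35 to 0.35 and an adjusted p of 0.994 in edgeR's test. Mrps18c had 136, 169 and 194 CPM in 2H-11, against 156, 191 and 177 CPM in SVEC4-10, with overlap, and its adjusted p was 0.53 in edgeR's test. The differences in response among the 3 genes were not tested.

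Mrps30, the other member placed in the large subunit against its symbol, was the least abundant member tested. It had 3.35, 4.14 and 8.41 CPM in 2H-11, against 4.91, 4.96 and 7.74 CPM in SVEC4-10, and rested on 253 counts in all. The lines overlapped, and its log2 fold change of -0.27 ± 0.37 (SE) had an adjusted p of 0.617 in edgeR's test. Mrps36 had 160 ± 17.0 CPM in 2H-11 and 177 ± 9.47 in SVEC4-10 (SD, n = 3 each), and did not pass, with an adjusted p of 0.31 in edgeR's test.

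Levels across the 77 tested members, which leave out Mrpl53 with no count, spanned a wide range. They ran from 5.58 to 415 CPM as the mean over the 6 libraries, with a median of 118 CPM. Divided by transcript length, levels were 1.68 to 869 CPM per kb, with a median of 73.9. Reads come from native RNA strands, so counts need not grow with length, and this division raises short transcripts against long ones. Of the tested members, Mrpl33 was highest and Mrps30 lowest on both scales. Mrpl33 had 289, 381 and 446 CPM in 2H-11, against 430, 475 and 471 CPM in SVEC4-10, and 778 CPM per kb in 2H-11 against 959 in SVEC4-10. Its lines overlapped, and its log2 fold change of -0.39 ± 0.18 (SE) did not pass, with an adjusted p of 0.0994 in edgeR's test. Mrpl18 averaged 429 ± 2.74 CPM in 2H-11 and 345 ± 29.9 in SVEC4-10 (SD, n = 3 each), with an adjusted p of 0.311 in edgeR's test. Mrpl17 averaged 275 ± 6.28 CPM in 2H-11 and 314 ± 27.9 in SVEC4-10 (SD, n = 3 each), with an adjusted p of 0.171 in edgeR's test. Across the 77 genes, Pearson's r of log2 mean CPM in 2H-11 with that in SVEC4-10 was 0.943, a description over genes that share libraries and are not independent replicates.

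Replicates were close for most members, with a median coefficient of variation of 9.49% in 2H-11 and 8.71% in SVEC4-10. Mrps30 varied most in 2H-11, at 51.4%, and Mrps34 in SVEC4-10, at 41.0%. In 2H-11 replicate 3, 5 members stood at 1.5 times or more of the mean of the other two replicates: Mrps30, Mrps34, Mrps24, Mrps26 and Mrps35. Over all tested genes, 12.8% did so. Mrps34 and Mrps24 also share exons on the same strand with other genes, 763 of 2064 exonic bases with Nme3 and 226 of 1466 with Urgcp.

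Mrpl53, a large-subunit protein at chr6:83109040-83109939 on the plus strand, was the 1 member not tested. It had 0 counts in each library, so by counting error alone 2H-11 could hold up to 0.196 CPM and SVEC4-10 up to 0.121 CPM, the level of 3 counts in a line's summed total. Of its 790 exonic bases, 695 also lie in exons of Gm42688 on the same strand, and reads that fit both genes cannot be told apart from these files. Gm42688 had 158, 181 and 193 CPM in 2H-11, against 121, 125 and 112 CPM in SVEC4-10. The lines did not overlap, and its log2 fold change was 0.48 ± 0.17 (SE), with an adjusted p of 0.0361 in edgeR's test. In GENCODE M21, 8 members share exonic bases with another gene on the same strand and 28 on the opposite strand, and whether counting used strand is not stated. The annotation also names 5 pseudogenes after 3 members, whose reads could not be separated. Pseudogene copies under other names were not counted.

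By origin, 46 tested members have a bacterial counterpart, of which 4 were higher and 5 lower, the median log2 fold change being -0.15. The shares were 8.70% and 10.9%, against 20.1% and 16.2% of all tested genes. Of 30 tested members classed as without a bacterial counterpart, 1 was higher (3.33%) and 2 lower (6.67%), with a median of -0.23. This class held Mrps18a, the higher member, and Mrps18b, although both are relatives of a bacterial ribosomal protein. Another 5 proteins of the mitochondrial ribosome carry other symbols, namely Dap3, Ptcd3, Aurkaip1, Chchd1 and Gadd45gip1. None passed in either direction in edgeR's test, none had an unadjusted p under 0.05, and neither limma-voom nor DESeq2 called any. Chchd1, a small-subunit protein and the most abundant of them by CPM, averaged 220 ± 33.3 CPM in 2H-11 and 251 ± 9.91 in SVEC4-10 (SD, n = 3 each), with an adjusted p of 0.214 in edgeR's test.

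Of 28 tested genes for assembly of the mitochondrial ribosome and modification of its rRNA, 1 was higher and 2 lower, and the median log2 fold change was -0.16. The shares were 3.57% and 7.14%, against 20.1% and 16.2% of all tested genes. Gtpbp10, a GTPase of large-subunit assembly, had 16.6, 14.6 and 10.3 CPM in 2H-11, against 40.0, 61.7 and 51.8 CPM in SVEC4-10. The lines did not overlap, with a log2 fold change of -2.00 ± 0.25 (SE) and an adjusted p of 3.53e-06 in edgeR's test. Fastkd2 was the other lower gene and Rpusd4 the higher one, both named after their values were seen. The higher count was 0 in DESeq2 and without any 1 library other than 2H-11 replicate 3, and the lower count 1 in limma-voom and without 2H-11 replicate 2, SVEC4-10 replicate 2 or SVEC4-10 replicate 3. Ndufab1, the mitochondrial acyl carrier protein and the most abundant of the list by CPM, averaged 129 ± 45.1 CPM in 2H-11 and 101 ± 26.4 in SVEC4-10 (SD, n = 3 each), with an adjusted p of 0.392 in edgeR's test.

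Translation factors of mitochondria held 5 lower genes and 1 higher among 15 tested, with a median log2 fold change of -0.30. These were 33.3% lower and 6.67% higher, against 16.2% and 20.1% of all tested genes. In either direction 40.0% were called, against 36.2% of all tested genes. Mrrf, which recycles the ribosome after translation ends, had 76.6, 63.3 and 68.8 CPM in 2H-11, against 98.4, 112 and 109 CPM in SVEC4-10. Its lines did not overlap, with a log2 fold change of -0.71 ± 0.18 (SE) and an adjusted p of 0.00438 in edgeR's test. The initiation factor Mtif3, the elongation factor Tsfm, the release factor relative Mtrf1l and the insertase Oxa1l were the other lower genes, and the elongation factor Tufm was higher, all named after their values were seen. Tufm averaged 134 ± 12.8 CPM in 2H-11 and 88.2 ± 5.68 in SVEC4-10 (SD, n = 3 each), with an adjusted p of 0.0287 in edgeR's test, while Tsfm, its exchange factor, averaged 54.5 ± 3.26 CPM in 2H-11 and 75.9 ± 10.9 in SVEC4-10. Only 1 gene was lower without 2H-11 replicate 2 and 3 without SVEC4-10 replicate 1 or replicate 2, and none was higher without 2H-11 replicate 2 or SVEC4-10 replicate 3. DESeq2 called 5 lower and none higher, so that the Tufm call was lost. Slirp, an mRNA-binding protein and the most abundant of the list by CPM, had an adjusted p of 0.259 in edgeR's test.

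Of 19 tested mitochondrial aminoacyl-tRNA synthetases and related enzymes, 3 were higher, with a median log2 fold change of 0.04. Gatb, a subunit of the amidotransferase that makes glutaminyl-tRNA, had 22.3, 17.1 and 15.1 CPM in 2H-11, against 10.1, 7.72 and 6.73 CPM in SVEC4-10. The lines did not overlap, with a log2 fold change of 1.09 ± 0.26 (SE) and an adjusted p of 0.0030 in edgeR's test. The other higher genes were Lars2 and Wars2, named after their values were seen, and 1 gene was higher in DESeq2, and also without 2H-11 replicate 1, SVEC4-10 replicate 2 or SVEC4-10 replicate 3. None was lower by edgeR's test, by limma-voom, by DESeq2 or at an unadjusted p under 0.05, while 1 was lower without SVEC4-10 replicate 1 or replicate 3.

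Genes of mitochondrial transcription, RNA processing and DNA maintenance had the lowest median of the lists of mitochondrial genes, -0.43 on the log2 scale, with 2 of 16 lower. The lower share was 12.5%, against 16.2% of all tested genes. Tfam, which packs mitochondrial DNA and starts its transcription, had 40.6, 37.5 and 34.7 CPM in 2H-11, against 74.6, 78.5 and 64.3 CPM in SVEC4-10. Its lines did not overlap, with a log2 fold change of -1.04 ± 0.19 (SE) and an adjusted p of 0.00028 in edgeR's test. Pnpt1, an RNA-degrading enzyme of mitochondria, was the other lower gene, named after its values were seen. None was higher by edgeR's test, by limma-voom, by DESeq2 or at an unadjusted p under 0.05, while 1 was without 2H-11 replicate 1. Ssbp1, which coats single-stranded mitochondrial DNA and was the most abundant of the list by CPM, averaged 181 ± 7.34 CPM in 2H-11 and 152 ± 10.5 in SVEC4-10 (SD, n = 3 each), with an adjusted p of 0.498 in edgeR's test. Of 7 tested regulators of nuclear genes for mitochondria, Myc was lower, at 49.4 ± 9.85 CPM in 2H-11 and 67.4 ± 3.98 in SVEC4-10 (SD, n = 3 each), with an adjusted p of 0.0356 in edgeR's test. This call was lost without 2H-11 replicate 2 or replicate 3, or without SVEC4-10 replicate 2 or replicate 3. The lower share of the regulators was 14.3%, against 16.2% of all tested genes. None was higher in edgeR's test, limma-voom or DESeq2, 1 had an unadjusted p under 0.05 in that direction, and 1 was higher without 2H-11 replicate 3. Gabpa, the DNA-binding subunit of the ETS-family factor GABP and the most abundant of the list by CPM, had 96.7, 93.3 and 74.5 CPM in 2H-11, against 55.9, 67.2 and 57.3 CPM in SVEC4-10. Its lines did not overlap, but its adjusted p was 0.0711 in edgeR's test.

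The mRNAs that the mitochondrial ribosome translates did not pass in either direction in edgeR's test, with 10 of 13 tested and a median log2 fold change of -0.23. None had an unadjusted p under 0.05, and limma-voom and DESeq2 called none. Those not tested were mt-Atp8, with no count, mt-Nd4l and mt-Co2. In 2H-11 and SVEC4-10, mt-Nd4l averaged 0.486 and 0.575 CPM and mt-Co2 0.763 and 1.41 CPM. By comparison, mt-Co1 averaged 2512 and 2471 CPM. Among those tested, mt-Nd3 had 0, 16.3 and 12.7 CPM in 2H-11. How fully these mRNAs were counted was not tested, so the list is an uncertain measure of them. Single calls appeared when libraries were left out: 1 higher without 2H-11 replicate 1, 2H-11 replicate 3, SVEC4-10 replicate 2 or SVEC4-10 replicate 3, and 1 lower without SVEC4-10 replicate 1. The gene with the smallest p, mt-Nd1, averaged 2570 ± 1080 CPM in 2H-11 and 1647 ± 643 in SVEC4-10 (SD, n = 3 each), and its libraries overlapped. The highest, mt-Nd6, averaged 12263 ± 1226 CPM in 2H-11 and 9256 ± 1499 in SVEC4-10 (SD, n = 3 each), with an adjusted p of 0.154 in edgeR's test. Since mt-Nd6 lies on the strand opposite its neighbours and strand use is not given, its value is uncertain.

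Cytosolic ribosomal proteins, the corresponding family of the other ribosome, had 7 higher and 8 lower genes among 82 tested, and a median log2 fold change of 0.00. The shares were 8.54% and 9.76%, against 20.1% and 16.2% of all tested genes. The cytosolic family summed to 175379 ± 16436 CPM in 2H-11 and 166890 ± 6701 in SVEC4-10 (SD, n = 3 each). Rpl3, a core protein of the large cytosolic subunit, averaged 1168 ± 100.3 CPM in 2H-11 and 132 ± 18.5 in SVEC4-10 (SD, n = 3 each), with an adjusted p of 1.87e-10 in edgeR's test. Rpl41, the most abundant, averaged 5907 ± 1212 CPM in 2H-11 and 8751 ± 452 in SVEC4-10 (SD, n = 3 each), with an adjusted p of 0.00487 in edgeR's test. The higher count was 4 without 2H-11 replicate 2 or SVEC4-10 replicate 1, and with library size alone it was 15. The lower count was 4 without 2H-11 replicate 1 or replicate 2 and 5 without SVEC4-10 replicate 3. Reads of the many processed copies of these genes could not be separated.

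Nuclear-encoded respiratory chain subunits had 5 higher and 10 lower genes among 77 tested, and a median log2 fold change of -0.06. Ndufb11, a complex I subunit, averaged 151 ± 15.4 CPM in 2H-11 and 260 ± 23.7 in SVEC4-10 (SD, n = 3 each), with an adjusted p of 0.000384 in edgeR's test. Atp5b, the catalytic subunit of ATP synthase and the most abundant of the list by CPM, averaged 1348 ± 60.5 CPM in 2H-11 and 1851 ± 118 in SVEC4-10 (SD, n = 3 each), with an adjusted p of 0.00603 in edgeR's test. The higher count was 3 without 2H-11 replicate 2 or SVEC4-10 replicate 1 and 2 without SVEC4-10 replicate 3, and the lower count was 6 without 2H-11 replicate 2. The mitochondrial ribosomal proteins, with 5 higher and 7 lower among 77, were not tested against these lists.

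**Figure D5:**
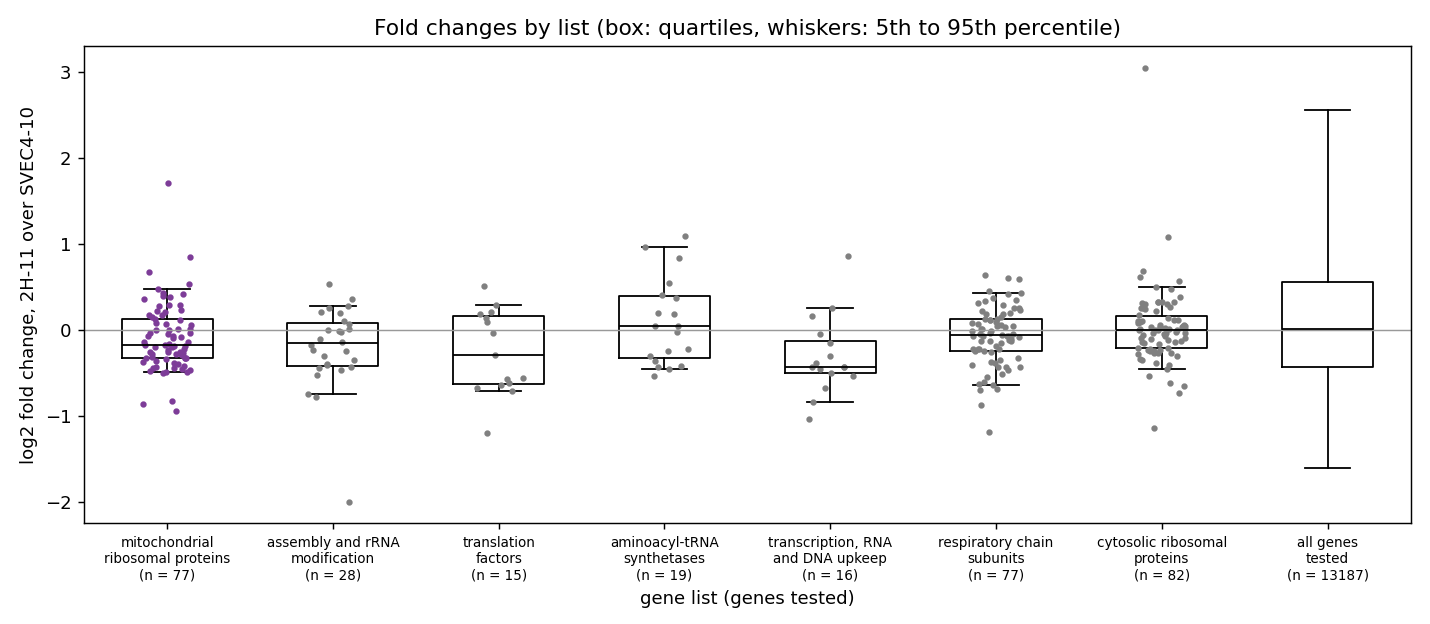
Log2 fold change (2H-11 over SVEC4-10) of the tested genes of 7 lists and of all tested genes, with points for genes, boxes for quartiles and medians, and whiskers for percentiles as given in the title; single genes are not drawn for all tested genes. The medians are -0.18 for mitochondrial ribosomal proteins, -0.43 for transcription, RNA and DNA upkeep, and 0.00 for all tested genes.

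Promoter windows from RefSeq (GRCm38.p6), 250 bases before to 50 after the annotated start, were found for 69 of the 78 members. They were searched on both strands for 4 motifs, counting a gene where any of its windows held one. CCGGAAG, the core of the site of GABP and other ETS factors, was in 26 members (37.7%), against 9.93% of the 27025 genes with a window and 22.8% of the 8095 that were also tested. GCATGCGC, the core of the NRF1 site, was in 8 members (11.6%), against 3.05% of all genes and 6.68% of tested ones. The YY1 motif, whose letters are the second run of capitals in the Mrps18a window printed below, was in 5 members (7.25%), against 0.995% and 2.83%. TATAAA was in 5 members (7.25%), against 15.7% and 8.05%. CCGGAAG was in 2 of the 5 higher members, 3 of the 6 lower members with a window and 20 of the 57 uncalled ones. A match describes the letters and is not evidence of binding.

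The windows of the member with the smallest p in each direction are shown because these genes differed most in opposite directions. They lie at chr16:92058086-92058385 on the plus strand for Mrps6 and chr3:87919294-87919593 on the plus strand for Mrpl24. Neither holds any of the 4 motifs, so no letter is in capitals.
Mrps6: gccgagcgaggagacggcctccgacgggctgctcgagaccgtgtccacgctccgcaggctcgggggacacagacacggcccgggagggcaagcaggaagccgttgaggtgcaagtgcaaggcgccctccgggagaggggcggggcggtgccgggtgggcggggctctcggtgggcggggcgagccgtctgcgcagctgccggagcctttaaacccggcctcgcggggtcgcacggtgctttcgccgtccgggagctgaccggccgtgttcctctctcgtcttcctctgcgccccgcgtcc
Mrpl24: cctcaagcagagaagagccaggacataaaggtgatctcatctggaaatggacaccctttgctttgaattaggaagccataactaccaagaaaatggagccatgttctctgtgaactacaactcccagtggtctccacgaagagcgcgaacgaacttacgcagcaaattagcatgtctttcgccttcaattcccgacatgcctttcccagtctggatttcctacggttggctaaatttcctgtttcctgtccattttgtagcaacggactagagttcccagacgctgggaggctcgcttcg

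The windows of the Mrps18 relatives are shown to set the starts of the 3 relatives side by side, since only Mrps18a was called. Capitals mark motif matches. Mrps18a, at chr17:46110754-46111053 on the plus strand, holds CCGGAAG 26 bases before the start and the YY1 motif 11 bases after it. Mrps18b, at chr17:35916391-35916690 on the minus strand, holds GCATGCGC 223 bases before and 28 bases after the start, and CTTCCGG, the reverse complement of CCGGAAG, 43 bases after it. Mrps18c, at chr5:100798509-100798808 on the plus strand, holds CTTCCGG 156 bases before the start.
Mrps18a: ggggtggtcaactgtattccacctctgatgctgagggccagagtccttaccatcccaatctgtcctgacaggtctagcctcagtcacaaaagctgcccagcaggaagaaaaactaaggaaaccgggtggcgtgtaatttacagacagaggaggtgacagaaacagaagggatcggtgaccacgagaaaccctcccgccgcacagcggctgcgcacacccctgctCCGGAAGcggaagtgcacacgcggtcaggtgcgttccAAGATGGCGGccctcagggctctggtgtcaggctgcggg
Mrps18b: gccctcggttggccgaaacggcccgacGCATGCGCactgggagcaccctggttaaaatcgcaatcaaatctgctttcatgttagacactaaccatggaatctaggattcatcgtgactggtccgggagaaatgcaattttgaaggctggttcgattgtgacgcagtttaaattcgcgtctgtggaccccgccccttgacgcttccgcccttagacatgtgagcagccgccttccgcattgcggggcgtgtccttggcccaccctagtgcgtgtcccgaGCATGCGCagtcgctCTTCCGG
Mrps18c: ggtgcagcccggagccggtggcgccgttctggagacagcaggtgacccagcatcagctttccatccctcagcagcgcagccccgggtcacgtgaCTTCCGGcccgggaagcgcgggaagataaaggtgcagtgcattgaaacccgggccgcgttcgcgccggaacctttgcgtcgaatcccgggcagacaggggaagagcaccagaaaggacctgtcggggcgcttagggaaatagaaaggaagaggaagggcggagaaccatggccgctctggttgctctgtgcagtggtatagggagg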

How the data were processed

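Direct RNA sequencing was done on 3 libraries of each line. Per the labels' protocols, RNA was taken with Trizol and libraries were made with the Oxford Nanopore kit SQK-RNA002; builds mm10 and GRCm38 are named in the submitters' processing notes. No aligner, counter, annotation or strand setting is given in the sources used here. In 1 table the authors deposited raw counts per gene and the same counts as CPM, and, per the file headers, their own DESeq2 comparison, as log2 fold changes with adjusted p-values. A positive fold change there goes with higher CPM in 2H-11. Another 13 broken lines hold no gene name and were not used.

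Counts were compared in edgeR 4.0.16 (R 4.3.3): filterByExpr (minimum count 10, minimum total 15), TMM scaling, and the quasi-likelihood test with line as the only term. Genes were called at a p of 0.05 after Benjamini-Hochberg adjustment over 13187 genes. Scripts were tested on simulated data. Alternatives used limma 3.58.1 (voom), DESeq2 1.42.0, other scalings and filters, a length correction, thinned counts and leaving out each library. Per-kilobase levels used GENCODE M21 transcript lengths, from 463 to 7300 bases, and depend on the transcript chosen.

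Named were all called members, the 4 of highest mean CPM, untested members, the Mrps18 relatives, members in the other subunit than their symbol, and, per other list, the genes with smallest p and highest mean CPM. One gene that this rule names is not reported here. Members and lists were chosen with earlier results of these data known. Totals per library were 3628400 to 16798666 counts. Floors cover counting error only, while intervals of fold changes come from the SE of the fit.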

Additional observations from a re-analysis of the deposited data

How the results depend on the processing

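The member median stayed negative in all 18 alternatives, between -0.27 and -0.07. Genes higher in 2H-11 numbered 2645, 1657 with Ensembl identifiers only, where 10170 genes were tested in place of 13187, and 1595 with the length trend removed among the 10148 genes with a length, which changed the set of genes as well. Members higher numbered 5, 8 with library size alone, upper-quartile factors or Ensembl identifiers only, 3 without a filter, and 3 to 4 leaving out 1 library each. Members lower numbered 7, 3 with library size alone, upper-quartile factors or Ensembl identifiers only, 12 without a filter, 4 with thinned counts, and 3 to 12 leaving out 1 library each. DESeq2 gave 4 higher and 9 lower. The summed ratio of 1.04 became 0.975 with TMM factors. Mrps18b turned to -0.0095 with DESeq2's size factors, -0.011 with thinned counts, -0.071 without a filter, -0.11 with the length trend removed and -0.061 in DESeq2, and was between -0.19 and 0.059 leaving out 1 library each, negative without 2H-11 replicate 1 or SVEC4-10 replicate 1 and never past the threshold. Of the other values of named members, 259 kept their direction and side of the threshold, 54 lost the call and 4 gained one. Of the counts in other lists, 241 stayed within 1.5 times and 83 moved. The causes were not tested.

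The libraries of the lines share only a replicate number, not a known pairing: with the replicate block, 2491 genes were higher and 1970 lower, with 4 members each way. Deviations of same-numbered libraries correlated at -0.02, 0.05 and -0.0026, and not every library correlated best with its own number. Mrps30 rests on 253 counts in all.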

Other observations

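Start sites of 33 members lay within 1000 bases of the start of a protein-coding gene that runs the other way, and in 28 of these pairs both genes were tested. In 20 of the 28 pairs the fold changes had the same sign. The share among other pairs of this kind was not computed, and 51 of the 77 tested members had negative fold changes. Some pairs also share exonic bases on opposite strands: 117 for Mrpl21 and Ighmbp2, 507 for Mrpl43 and Twnk, and 173 for Mrps11 and Mrpl46. Since strand use is not stated, reads there may not be separated. Both genes of a pair share libraries, so the count of pairs is a description. These pairs were examined after the values of the members were seen. Mrpl21, lower in 2H-11, faces Ighmbp2, a helicase gene that averaged 2.98 ± 0.846 CPM in 2H-11 and 5.85 ± 1.22 in SVEC4-10 (SD, n = 3 each) and was also lower, with a log2 fold change of -1.06 ± 0.35 (SE) and an adjusted p of 0.025 in edgeR's test. The neighbour of Mrpl43, Twnk, which encodes the helicase of mitochondrial DNA, averaged 7.94 CPM in 2H-11 and 11.7 in SVEC4-10, with an adjusted p of 0.058 in edgeR's test. The neighbours of Mrpl32 and Mrpl57 did not pass either: Psma2, a proteasome subunit, had a log2 fold change of -0.14, and Ska3, a spindle protein, one of -0.00.

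Called neighbours also stood beside members that did not pass. Mitd1, which faces Mrpl30, averaged 31.4 CPM in 2H-11 and 88.4 in SVEC4-10 and was lower, with a log2 fold change of -1.59 in edgeR's test, while Mrpl30 had -0.44 and an adjusted p of 0.054. Tmem63b, which faces Mrpl14, was higher, with a log2 fold change of 1.39. Pnpla7, which faces Mrpl41, was lower, with a log2 fold change of -3.64. Also lower were Wdfy1, beside Mrpl44, at -0.57 and Helq, beside Mrps18c, at -0.72. Over all tested genes, 36.2% were called in one direction or the other. Mrps11 and Mrpl46 face each other, and had log2 fold changes of -0.00 and -0.36.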
